A study of Mus musculus with 8 samples.

Results

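Distal chromatin accessibility peaks that were present in a wild-type retina and had no counterpart in a Spata7 mutant retina are described here. A peak is a stretch of open chromatin called from single-nucleus ATAC sequencing, in which a transposase inserts adapters where DNA is not packed away. The members are the peaks of the wild-type (WT) list that the deposited annotation types as distal and not as promoter, and that overlap no peak of the mutant (knockout, KO) list by 1 bp or more. They number 3259 of the 43214 WT distal peaks, which is 7.54% (exact binomial 95% interval 7.29 to 7.79%, counting error only). The WT list held 56797 peaks and the KO list 91130, or 147927 in all. The members were chosen by this overlap, so their absence from the KO list is the definition and carries no test.

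The peak lists came from 1 library of a WT C57BL6/J retina at 7 months and 1 library of a Spata7 mutant retina at 6 months, the mutant line of Eblimit et al.. RNA was measured in single cells or nuclei in 1 library per genotype at 1, 3 and 6 months, on nanowell chips of 5184 wells with priming near the 3' ends. All animals are labelled male, on a standard diet with 12 hours of light and 12 of dark, and the labels name no replicates and no driver or clone. Each genotype therefore rests on 1 ATAC library, the WT age was 1 month greater than the mutant age, and no difference between the lists has a replicate check.

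Distal elements such as enhancers are bound by transcription factors and act on promoters at a distance. In rod photoreceptors the factors CRX, NRL and NR2E3 occupy many such elements beside the genes of phototransduction, the cascade in which light drives transducin and a phosphodiesterase that lowers cyclic GMP and closes the cGMP-gated channel. SPATA7 is a protein of the photoreceptor connecting cilium, and its loss leads to photoreceptor degeneration.

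Sequences are shown for 4 of the 5 phototransduction genes with most members and for members that reach into a gene start. The first 4 lines are the 200 bases before a RefSeq start of Abca4 (chr3:122044260-122044459, plus strand), Cngb1 (chr8:95306586-95306785, minus strand), Cnga1 (chr5:72642753-72642952, minus strand) and Rgs9 (chr11:109298182-109298381, minus strand). The start taken for Abca4 is the one the promoter table gives and lies inside the outer bounds of the gene (122043891 to 122180070), which begin at an earlier start; the other 3 windows abut the gene's outer bound. These are promoter bases from RefSeq on GRCm38 (mm10), not members, and are given because all 4 genes kept a promoter peak in both lists while distal peaks around them had no KO counterpart. The next 2 lines are bases of members: 212 bases before the start of Xist (chrX:103483234-103483445, minus strand) and 115 bases of a member annotated to Rassf8 before the start of Gm38927 (chr6:145842397-145842511, minus strand). All are written 5' to 3' in the direction of the named start, and capitals mark the letters TAATCC, the core bound by CRX and OTX2, or its reverse complement GGATTA. They are in the promoter bases of Abca4 and Cngb1 and not in those of Cnga1 and Rgs9.
Abca4 promoter: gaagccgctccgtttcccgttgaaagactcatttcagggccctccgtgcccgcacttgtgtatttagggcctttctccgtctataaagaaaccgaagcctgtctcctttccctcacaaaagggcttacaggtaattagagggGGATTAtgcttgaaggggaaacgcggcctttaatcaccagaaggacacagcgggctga
Cngb1 promoter: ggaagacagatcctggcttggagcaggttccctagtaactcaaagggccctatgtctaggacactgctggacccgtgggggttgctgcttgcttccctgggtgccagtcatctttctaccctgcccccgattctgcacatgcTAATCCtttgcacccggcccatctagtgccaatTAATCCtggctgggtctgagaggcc
Cnga1 promoter: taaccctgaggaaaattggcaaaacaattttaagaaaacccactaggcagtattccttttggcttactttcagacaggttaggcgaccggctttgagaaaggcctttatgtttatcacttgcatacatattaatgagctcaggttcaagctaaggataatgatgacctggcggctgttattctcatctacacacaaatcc
Rgs9 promoter: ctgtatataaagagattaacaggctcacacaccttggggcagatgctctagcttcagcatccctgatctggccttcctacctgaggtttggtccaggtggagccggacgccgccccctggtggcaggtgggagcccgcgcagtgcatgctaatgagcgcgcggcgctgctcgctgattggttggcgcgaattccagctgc
Xist member: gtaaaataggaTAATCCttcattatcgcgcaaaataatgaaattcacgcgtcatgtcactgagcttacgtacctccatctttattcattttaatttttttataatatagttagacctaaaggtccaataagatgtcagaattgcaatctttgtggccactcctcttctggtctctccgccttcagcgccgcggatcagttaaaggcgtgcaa
Gm38927 member: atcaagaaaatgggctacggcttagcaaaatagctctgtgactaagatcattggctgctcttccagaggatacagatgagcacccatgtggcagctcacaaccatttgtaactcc

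The TAATCC letters occurred on either strand in 7 of the 11 promoter windows found for phototransduction genes with members (63.6%). They occurred in 7.06% of all 32851 windows of the same length, 250 bases before to 50 after a start. Among genes with 3 or more members they occurred in 17 of 322 windows (5.28%), a share below that of all windows. The nuclear receptor core AGGTCA was in 5 of the 11 windows (45.5%) against 16.3% of all. The GC box GGGCGG was in 196 of the 322 windows (60.9%) against 35.7% of all. The NRL motif core TGCTGA, the E-box CAGATG, the AP-1 letters TGANTCA and the core of the CTCF motif were also searched, on both strands and with overlapping matches of different motifs counted for each. In the 322 windows they were found in 16.1%, 13.4%, 5.90% and 3.73%, against 19.5%, 17.2%, 7.81% and 2.43% of all. In the 11 phototransduction windows they were found in 3, 3, 1 and 2, and the GC box in 3 (27.3%), a share below that of all windows. A match describes the letters of the window and is not evidence of binding.

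Several facts of the libraries bear on what follows. All 24 rod markers and all 22 phototransduction genes listed had a promoter peak in both lists, whereas 11 of 18 bipolar markers had one in WT and 17 in KO. The lists carry no score, height or threshold and their depth is unknown. The list labelled WT and male had 0 peaks at the promoters of the Y-linked genes Kdm5d, Eif2s3y, Uty and Ddx3y, where the KO list had 1 at each, so sex, genotype and age cannot be told apart between the lists. In the RNA, Spata7 had 26.1, 20.2 and 32.2 CPM (counts scaled by the reads of the library to a fixed total) in the WT libraries at 1, 3 and 6 months and 4.07, 1.38 and 3.59 CPM in the KO libraries. The library labelled WT 1 month had 110 CPM of Xist and 0 reads of the 4 Y-linked genes, which the other 5 libraries had at 149 to 256 CPM, so its reads also go against its male label. Because each list sums over the cells of its library, fewer cells of a type and less accessibility per cell cannot be told apart.

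The members were short. Their median length was 251 bp, with quartiles of 118 and 344 bp and a range of 1 to 2978 bp. WT distal peaks that overlapped a KO peak had a median of 487 bp, with quartiles of 358 and 797 bp, and KO distal peaks that overlapped no WT peak had a median of 348 bp. Of the members, 705 (21.6%) were under 100 bp, 147 were 10 bp or less, 169 (5.19%) reached 500 bp and 29 reached 1000 bp. In the overlapping set 4.28% were under 100 bp and 47.4% reached 500 bp.

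**Figure D1:**
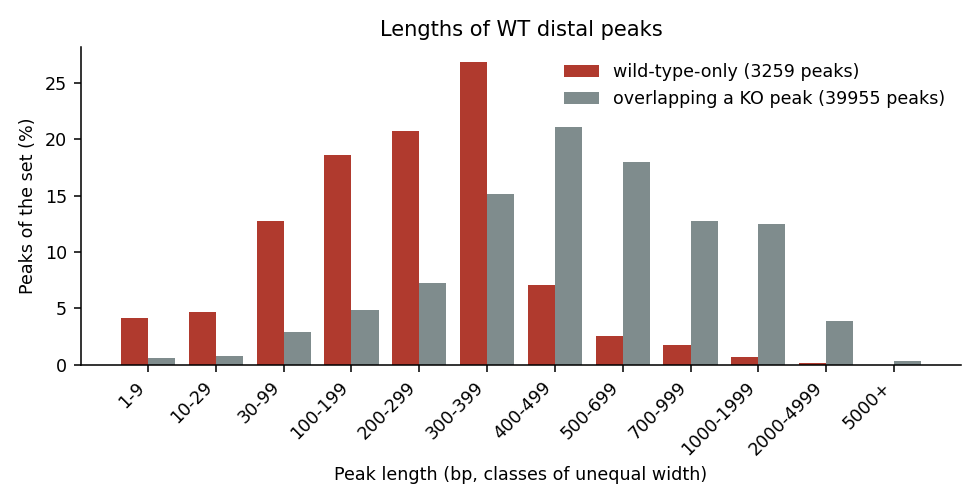
Share of WT distal peaks (%) in each length class (bp, classes of unequal width) for the 3259 wild-type-only peaks in red and the 39955 that overlap a KO peak in grey. The red bars lie mostly below 400 bp, around the median of 251 bp, and the grey bars are highest at 400 to 499 bp.

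Members lay at much the same distance from genes as the other WT distal peaks but more often within gene bodies. Among peaks with a distance above 0, the median distance to the annotated gene was 19260 bp for members and 19675 bp for the overlapping peaks, against 32096 bp for KO distal peaks with no WT peak. The annotation gave a distance of 0 to 674 members (20.7%) and to 16.9% of overlapping peaks. Members fell inside a RefSeq gene body in 80.3% of cases against 72.2%. They lay downstream of the annotated gene's start in 55.8% against 53.5% of overlapping peaks, and upstream in 23.5% against 29.7%. Positive distances were read as downstream, which held for 93.2% of the 26188 peaks tested. Only 14 members (0.430%) touched a RefSeq start, against 2.16% of the overlapping peaks. Promoter peaks were rarely WT-only: 35 of 12393 (0.282%) had no KO peak, as had 38 of 1190 intergenic peaks (3.19%).

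Most members were well separated from any KO peak. The median gap was 3010 bp, with quartiles of 1142 and 7555 bp, and 2554 members (78.4%) lay more than 1000 bp from the nearest KO peak while 193 lay within 500 bp. At the edge of the rule, an 8 bp member shared by Klhl18 and Ngp abutted a KO peak and a 167 bp member at Kif21b missed one by 2 bp. Just outside it, 354 WT distal peaks overlapped KO peaks by 10 bp or less, among them a 381 bp peak at Creb1 that overlapped by 1 bp. A further measure outside the rule is how much of each overlapping WT peak was covered by KO peaks: 1140 of 39955 (2.85%) were covered over less than 50% of their length, and the median peak was covered in full.

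Gene lists differed widely in how many of their WT distal peaks were members. Of 214 WT distal peaks at phototransduction genes, 78 were members, or 36.4% (exact binomial interval 30.0 to 43.3%). Rod markers, 14 of which are also phototransduction genes, had 53 of 171 (31.0%), and genes of the outer segment and connecting cilium had 27 of 143 (18.9%). Photoreceptor transcription factors had 26 of 214 (12.1%), of which 15 were at Esrrb; without it, a setting chosen after seeing the data, the list had 11 of 176 (6.25%), below the 7.54% of all WT distal peaks. The phototransduction, rod, outer segment and cilium, and ribbon synapse lists stayed above that share without their gene with most members. Ribbon synapse genes had 19 of 188 (10.1%) and chromatin regulators 25 of 288 (8.68%), close to the share of all peaks. Cone markers had 1 of 28 (3.57%), bipolar markers 3 of 108 (2.78%) and amacrine markers 1 of 51. Ganglion cell markers had 2 of 22 (9.09%) and RPE (retinal pigment epithelium) markers 1 of 14 (7.14%), with wide intervals around the share of all peaks. Müller glia markers had 0 of 47, horizontal cell markers 0 of 9, stress and gliosis genes 0 of 85, endothelial markers 0 of 26 and microglia markers 0 of 19. These shares use the same overlap as the rule and are descriptions, with intervals for counting error only, since peaks near 1 gene are not independent.

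**Figure D2:**
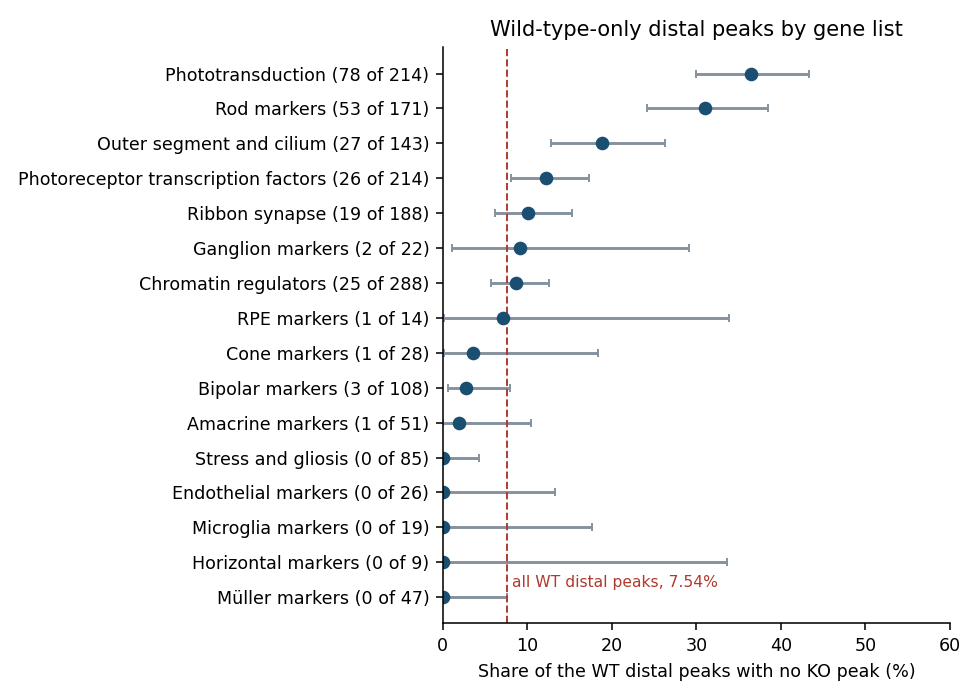
Percentage of the WT distal peaks of each gene list that had no KO peak, with exact binomial 95% intervals and the number of peaks in brackets; the dashed line marks 7.54%, the share over all WT distal peaks. Phototransduction (36.4%) and rod markers (31.0%) lie farthest to the right, and the lists of bipolar, amacrine and Müller markers lie to the left of the line.

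KO peaks with no WT peak were divided among the lists in another way. Of 188 KO distal peaks at phototransduction genes, 15 (7.98%) overlapped no WT peak, against 45.9% of all 71929 KO distal peaks, 59.7% at bipolar markers and 58.7% at Müller markers. Rod markers stood at 11.6% and outer segment and cilium genes at 22.7%. The lists with few or no members were not all above 45.9%: ganglion markers stood at 61.5%, amacrine markers at 52.6%, endothelial markers at 57.1% and horizontal markers at 80.5%, but cone markers at 43.2%, stress and gliosis genes at 39.8%, RPE markers at 33.3% and microglia markers at 32.1%. Phototransduction peaks were also members more often within each of the 5 length classes taken: 21 of 21 under 100 bp against 29.2% of all WT distal peaks of that length, 31 of 38 (81.6%) against 21.0% from 100 to under 300 bp, 10 of 36 (27.8%) against 7.09% from 300 to under 500 bp, 13 of 62 (21.0%) against 1.13% from 500 to under 1000 bp, and 3 of 57 (5.26%) against 0.433% from 1000 bp. Their peaks that did overlap a KO peak were less fully covered, with a median of 79.3% of the length and 32 of 136 (23.5%) covered over less than 50%.

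Within phototransduction the members were concentrated at 5 genes. Abca4, Pde6a, Cngb1, Rgs9 and Cnga1 held 63 members among 132 WT distal peaks (47.7%), and the other 16 genes with WT distal peaks held 15 among 82 (18.3%). Without Abca4 the list stood at 34.8%. At the 5 genes the WT distal peaks covered 112232 bp and the KO distal peaks 61754 bp. At the other 16 genes the cover was nearly level, with 128828 bp in WT and 123502 bp in KO, and the KO list had more distal peaks there (99) than the WT list (82). The 5 genes were taken for their number of members, so the contrast is a description.

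The cGMP-gated channel of rods, whose closure in light ends the inward current, is built from the Cnga1 and Cngb1 subunits. Cnga1 had 8 members among 13 WT distal peaks (61.5%), while the KO list had 5 distal peaks there, all overlapping WT peaks. The 8 members ranged from 10 to 846 bp and lay between 72609908 and 72639810 on chromosome 5, within the gene body (72603696 to 72642752). Cngb1 had 11 members among 21 (52.4%) and 12 KO distal peaks, 2 of them without a WT peak. A run of 6 consecutive WT-only peaks of 288 to 944 bp spanned chr8:95291486-95300495, inside the gene and 6090 to 15099 bp downstream of its start, with 0 KO peaks in the 9010 bp between. Slc24a1, the rod sodium, calcium and potassium exchanger that extrudes calcium, had 4 members among 9.

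The phosphodiesterase that hydrolyses cGMP showed the same at 1 of its catalytic subunits. Pde6a had 12 members among 24 WT distal peaks (50.0%) against 19 KO distal peaks, 1 of them KO-only. Of these, 7 members in a row spanned chr18:61264995-61275023 and included the longest member of all, at 2978 bp. Pde6b, the other catalytic subunit, had 2 members among 6, and Pde6g, the inhibitory subunit, had 0 of 1. Rgs9, which speeds the shut-off of transducin, had 10 members among 21 (47.6%), all between 34 and 400 bp, against 16 KO distal peaks.

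Genes for other steps of the cascade had few members. Gnat1 (rod transducin alpha) had 1 of 3, Gnb1 (transducin beta) 1 of 7, Sag (arrestin) 1 of 6 and Rcvrn (recoverin) 1 of 10. Of the guanylate cyclases that remake cGMP, Gucy2e had 2 of 8 and Gucy2f 1 of 4, and their activators Guca1a and Guca1b had 0 of 2 and 0 of 1. Most of these genes have few distal peaks in either list, so their shares are imprecise.

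**Figure D3:**
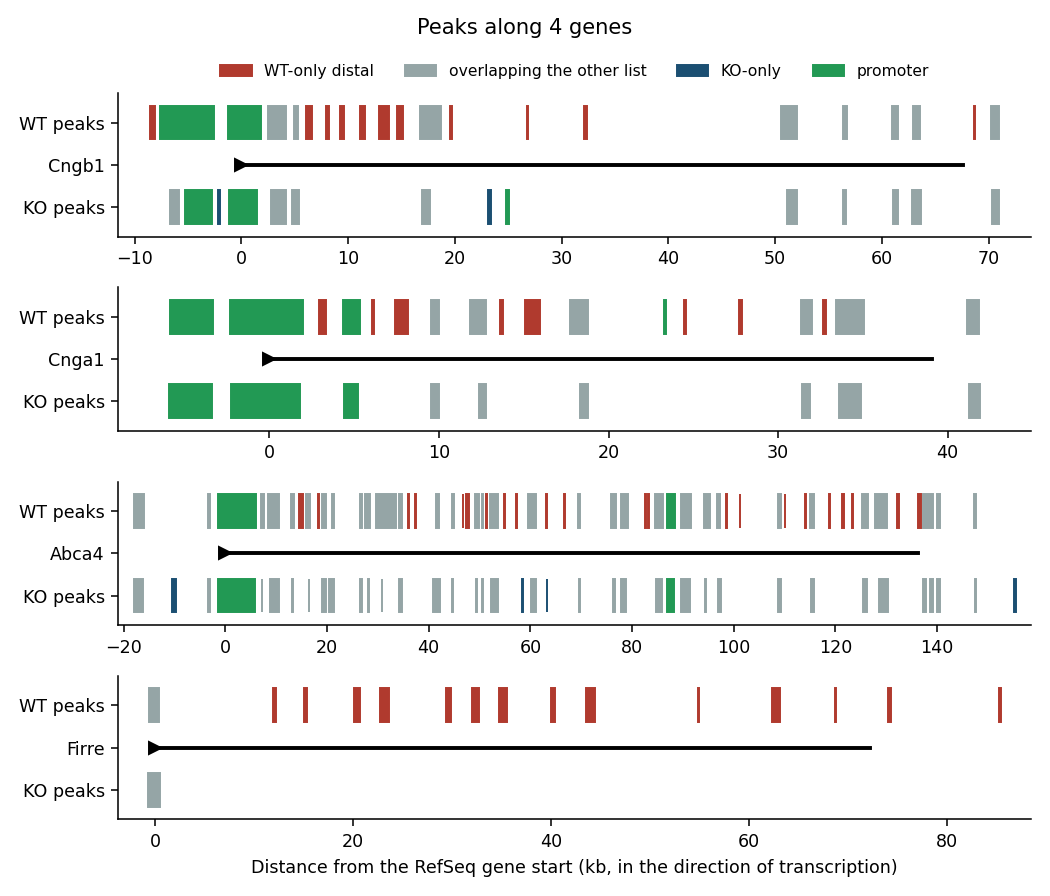
Peaks of the WT list (above) and the KO list (below) along Cngb1, Cnga1, Abca4 and Firre, by distance from the RefSeq start in kb in the direction of transcription; the black line is the gene. Red peaks are WT-only distal, grey overlap the other list, blue are KO-only and green are promoter peaks. At Cngb1 the 6 consecutive red peaks lie 6090 to 15099 bp from the start, and at Firre no KO peak faces the red peaks, the only KO peak drawn being the one at the gene start, which overlaps a WT peak.

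The gene with most members was Abca4, the transporter that clears retinaldehyde adducts from outer segment discs. It had 22 members among 53 WT distal peaks (41.5%), against 35 KO distal peaks of which 3 were KO-only. Its members had a median of 207 bp, a range of 1 to 698 bp, and were scattered among overlapping peaks over the gene body. Without members under 100 bp it had 13, level with the 13 then left at Olfr1324, and among peaks of at least 500 bp it had 3, against 6 at Olfr1324 and 4 at Pde6a. Esrrb, an orphan nuclear receptor of rods, followed among the photoreceptor genes with 15 of 38 (39.5%) against 32 KO distal peaks with 0 KO-only. A run of 4 of its members spanned chr12:86443796-86451171. Mef2d, a transcription factor with targets in photoreceptors, had 4 of 11, with a median length of 608.5 bp, whereas Nr2e3, the rod factor that represses cone genes, had 1 of 8.

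Genes outside the photoreceptor lists also stood high. Epb41l2, a membrane skeleton protein of the 4.1 family, had 12 members among 32 WT distal peaks (37.5%), Pex5l 11 of 34 (32.4%), Sipa1l2 9 of 32, Epb41 9 of 40 and Dmd (dystrophin) 9 of 21 (42.9%). The count at Dmd depended on the annotation: where every peak type value had to be distal and the distance not 0 it was 1, and among peaks of at least 500 bp it was 0. Some genes with high counts had many peaks: AC114005.5 had 17 of 255 (6.67%), Fgfr2 12 of 114 (10.5%) and Camta1 10 of 68 (14.7%), shares nearer to the 7.54% of all WT distal peaks, and under the same stricter annotation they had 0, 0 and 5. Among autosomal genes with at least 4 WT distal peaks, Son, which encodes a splicing cofactor, had the largest share with 5 of 6, in a row of 5 over 9587 bp on chromosome 16. Ngp had 7 of 9 by the deposited annotation, of which 4 lay in the body of the neighbouring Klhl18. Abi2, Fam126a, Mtl5, Pdxdc1 and Pitpnm1 had 3 of 4 each. At Abi2 and at Mtl5 the KO list also had 4 distal peaks, 3 of them KO-only. In RefSeq the run with the members of Mtl5 overlapped Cpt1a and Gm36532.

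**Figure D4:**
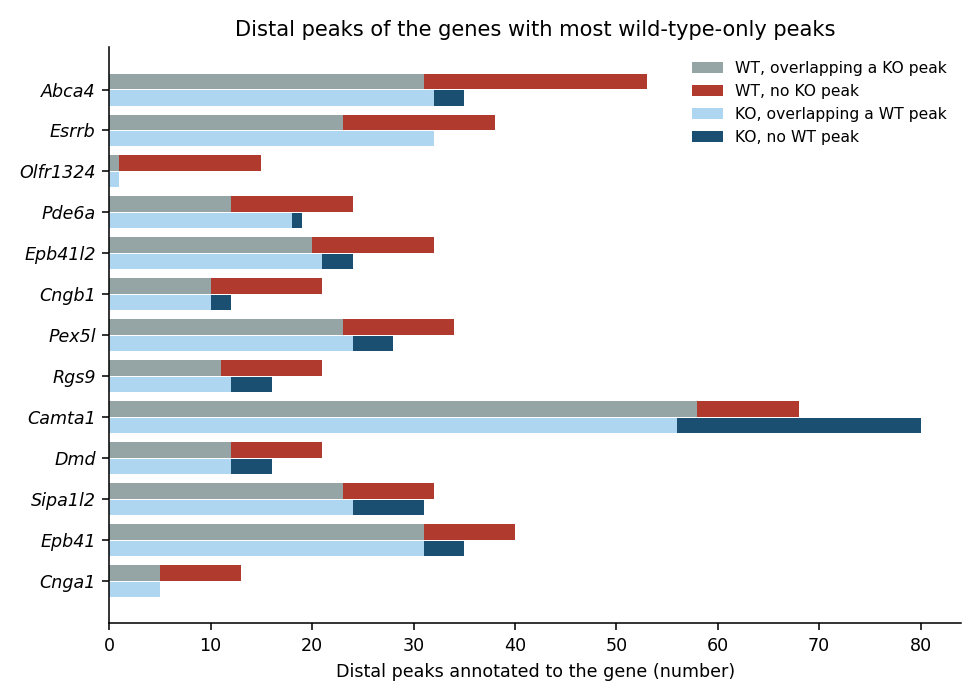
Number of distal peaks annotated to 13 of the 15 genes with most members (AC114005.5 and Fgfr2, with over 100 peaks each, are left out): upper bars WT, with WT-only peaks in red; lower bars KO, with KO-only peaks in dark blue. At Cnga1 the WT bar reaches 13 and the KO bar 5. Camta1 is the exception among the genes drawn, with 80 KO distal peaks against 68. The genes left out also had more in KO, with 354 against 255 at AC114005.5 and 191 against 114 at Fgfr2.

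Cilium and synapse genes had smaller numbers. Rp1l1, an axonemal protein, had 3 members among 11, Prph2, which shapes the disc rim, 2 of 3 and Rpgrip1, a scaffold of the connecting cilium that binds SPATA7, 2 of 4. Spata7 had 1 of 4. At the synapse Elfn1, the adhesion protein by which rods recruit bipolar receptors, had 6 of 30, and Rims2, an active zone protein, had 3 of 21, all of 31 bp or less.

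In all, 2588 genes had at least 1 member by the deposited annotation: 1864 had 1, 455 had 2 and 269 had 3 or more, and 64 had 5 or more. Of the 269, 127 (47.2%) had fewer KO than WT distal peaks, against 8.93% of the 13112 genes with a WT distal peak; the rule uses the same overlap, so nothing is read from this. Of 259 that had a promoter peak in WT, 258 had one in KO. Runs were counted over the 3332 WT peaks of any type with no KO peak, of which 3259 are members. Of these 3332, 2630 did not stand next to another such peak in the WT list, 267 runs held 2 and 34 held 3. The longest autosomal runs were the 7 at Pde6a, the 6 at Cngb1 and 6 at Stard7, which encodes a lipid transfer protein (chr2:127278167-127297291).

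The longest run of all was on the X chromosome. It held 14 members of 72 to 913 bp over chrX:50549834-50623445, with 0 KO peaks between, and was annotated to Olfr1324 (14 of 15 WT distal peaks), although in RefSeq 12 of the 14 lie in Firre and 2 in the neighbouring Gm35612. Firre is a long non-coding RNA whose locus, like Dxz4 on the same chromosome, is known for open CTCF sites on the inactive X of females. A run of 3 members at chrX:75728621-75759456 overlapped 4933407K13Rik, the transcript at Dxz4, and 2 members lay in Xist, one of them over its start. On X 82 of 679 WT distal peaks (12.1%) were members, or 10.2% without the run at Firre, against 6.57 to 9.13% on the autosomes. On the autosomes alone there were 3177 members, and phototransduction genes stood at 36.7%. Firre RNA over all wells was 7.06, 11.8 and 16.5 CPM in WT and 28.95, 19.3 and 11.6 CPM in KO at 1, 3 and 6 months, so it was higher in KO at 1 and 3 months and the ranges of the groups overlapped.

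RNA was then read in rod-like wells, which are the wells of 2 clusters named from rod markers. There were 409, 113 and 178 such wells in WT and 244, 131 and 439 in KO at 1, 3 and 6 months, with 5625992 to 64817322 reads per library. The clusters were filled unevenly: one held 19 wells of WT 1 month and 431 of KO 6 months, the other 390 and 8. Rod-like wells were 57.0, 52.3 and 51.3% of the wells kept in WT and 30.8, 16.4 and 50.1% in KO. Cluster 2, of 820 wells led by Edn2, was named Müller-like and left out although its rod markers were high. It held 12, 26 and 39 wells of WT and 338, 312 and 93 of KO at 1, 3 and 6 months. Summed rod markers were 142726 to 157837 CPM in WT and 103392 to 133098 CPM in KO, and summed Müller markers 1057 to 3523 CPM in WT and 7091 to 10906 in KO. Of the 9 lists of other cell types, 6 were higher in each KO library than in any WT library. Besides Müller markers these were cone markers (309.5 to 1692 CPM in WT and 1944 to 3370 in KO), bipolar markers (338 to 988 and 1226 to 2945), ganglion markers (307 to 563 and 605 to 1196), horizontal markers (112 to 159.9 and 201 to 339.7) and endothelial markers (8.69 to 147 and 240.2 to 308). Reads in all 6 libraries were found for 16 of 16 Müller, 10 of 12 cone, 16 of 18 bipolar, 8 of 12 ganglion, 4 of 7 horizontal and 3 of 11 endothelial markers. Amacrine, microglia and RPE markers overlapped between the groups. The part of these other-cell reads in the ratios below was not tested. Ratios are log2((KO CPM + 1)/(WT CPM + 1)).

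Genes with many members were expressed more in rods than genes at large. Their median level was 66.5 CPM for 3 or more members and 90.1 CPM for 5 or more, against 26.99 CPM over all 9811 genes with a mean of 5 CPM or more. The median excess of rod-like over bipolar-like wells in WT was 0.71, 0.44 and 0.45 (log2) at 1, 3 and 6 months for genes with 3 or more members, 1.45, 1.09 and 0.72 for those with 5 or more, and 2.74, 1.95 and 1.63 for phototransduction genes with members. Over all genes it was -0.13, 0.06 and -0.04.

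Their KO to WT ratios lay below those of all genes. For the 229 measured genes with 3 or more members the median log2 ratio was 0.17, 0.02 and -0.11 at 1, 3 and 6 months, and for all genes 0.45, 0.37 and 0.11. In 44 of the 229 (19.2%) KO was below WT at the 3 ages, against 9.03% of all genes, and in 39 (17.03%) it was above, against 25.8%. For the 56 with 5 or more members 16 (28.6%) were below and 5 (8.93%) above. For the 15 phototransduction genes with members the medians were -0.35, -0.53 and -0.44, with 9 below and 0 above at the 3 ages. The 7 without members had -0.15, -0.52 and -0.39, so lower ratios were also found at phototransduction genes that had no member. Scaling by TMM, edgeR's trimmed mean, moved the counts of the 229 to 70 below (30.6%) and 24 above (10.5%), against 16.3% and 17.5% of all genes. With TMM the medians of the 15 phototransduction genes with members were -1.03, -0.76 and -0.52, and of all genes -0.18, 0.16 and 0.04. With cluster 2 added to the rod-like wells these 15 stood at -0.60, -0.82 and -0.49, and all genes at 0.53, 0.43 and 0.11. Over all wells 23 of 236 (9.75%) were below at the 3 ages, against 9.38% of all genes, and for 5 or more members 5 of 56 (8.93%), so the excess was found in the rod-like wells and not over all wells. The order turned over all wells at 1 month, with medians of 0.50 for the member genes and 0.21 for all genes, and with no filter on low levels at 1 month (0.21 and 0.10) and 3 months (0.03 and 0.00). In the 2 rod-like clusters taken singly the medians moved widely. In cluster 1 they were 1.03, 0.46 and -0.12 for the member genes and 1.73, 1.04 and 0.16 for all genes. In cluster 3 they were -0.042, -0.61 and -1.71 against -0.056, -0.19 and -1.33, so the order turned by 0.01 at 1 month. Over all wells the phototransduction genes with members stood above all genes at 1 month (0.38 against 0.21), and in cluster 3 at 6 months (-0.93 against -1.33); over all wells 1 of the 15 was below WT at the 3 ages.

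No gene passed the test of genotype over the 3 ages. edgeR's quasi-likelihood test, with age as a factor and a false discovery rate of 0.05, called 0 of 11656 genes (0.0%) and 0 of the 238 tested with 3 or more members; before adjustment 972 genes lay under 0.05, and the lowest adjusted p of any gene was 0.120. Without the 3-month libraries it called 98 genes and without the 6-month libraries 63, with 0 of the genes with 3 or more members in either, and without the 1-month libraries it called 0. With no filter beyond 1 read it called 87 of 20769 genes (0.419%), among them 1 of 252 genes with 3 or more members (0.397%), Ankrd44, lower in KO. DESeq2 called 735 genes (6.31%) and 9 of the 238 (3.78%), 7 lower and 2 higher in KO. Among the 9 were Ankrd44, Cngb1, Dach1, Lrrtm2, Syne1, Taok3, Tnfaip3 and Usp6nl, of which Syne1, Taok3 and Tnfaip3 are named after their values were seen. With 1 library per genotype and age, the edgeR fit had 2 residual degrees of freedom, and on simulated data it recovered 0% of 200 genes changed by 3 (log2) at the dispersion of these libraries and 99% at a dispersion of 0.05.

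The channel subunits had lower RNA in each KO library, with the groups not overlapping, though without passing the test. The share of all genes whose groups do not overlap was not counted, here or for the genes below. Of all genes, 9.03% were lower in KO at the 3 ages, and the summed rod markers did not overlap between the groups either. Cngb1 had 3625, 3171 and 2973 CPM in WT at 1, 3 and 6 months and 2209, 1916 and 2159 CPM in KO. Its edgeR log2 fold change was -0.93 (SE 0.26, adjusted p 0.480). Cnga1 had 2117, 2341 and 2346 CPM in WT and 1524, 1830 and 1760 CPM in KO, a log2 fold change of -0.71 (SE 0.25, adjusted p 0.480). In both genes the highest KO library lay below the lowest WT library.

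Pde6a had 1195, 949 and 1403 CPM in WT and 940, 729 and 990 CPM in KO. It was lower in KO at each age, with the groups overlapping across ages (log2 fold change -0.71, SE 0.25, adjusted p 0.480). Epb41l2 had 1377, 1428 and 1746 CPM in WT and 1134, 1063 and 1230 CPM in KO, with no overlap (-0.70, SE 0.25, adjusted p 0.480).

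Abca4, with the most members, showed little difference at the younger ages on CPM scaled by the reads summed. It had 480, 293 and 522 CPM in WT and 466, 281 and 385 CPM in KO, so the ratio was -0.04, -0.06 and -0.44 at 1, 3 and 6 months (log2 fold change -0.48, SE 0.27, adjusted p 0.682). TMM scaling, not used for these ratios, moved the median of all genes from 0.45 to -0.18 at 1 month and from 0.37 to 0.16 at 3 months. Rgs9 had 391, 742 and 665 CPM in WT and 494, 518 and 725 CPM in KO, and Esrrb had 177, 48.5 and 111 CPM in WT and 149, 67.2 and 84.7 CPM in KO. Both genes changed order between the genotypes from age to age. Among genes with many members, Cngb1 and Cnga1 thus had lower RNA, but Rgs9 and Esrrb had ratios of both signs. Sipa1l2, with 9 members, was higher in KO at each age (ratios 0.86, 3.50 and 0.20). Lower RNA at each age was also found at rod genes with 0 members, such as Pde6g (log2 fold change -1.11) and Rdh12 (-0.86). Gngt1, also with 0 members, was higher in KO at 1 month (ratio 0.46). A link between members and RNA was not tested.

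**Figure D5:**
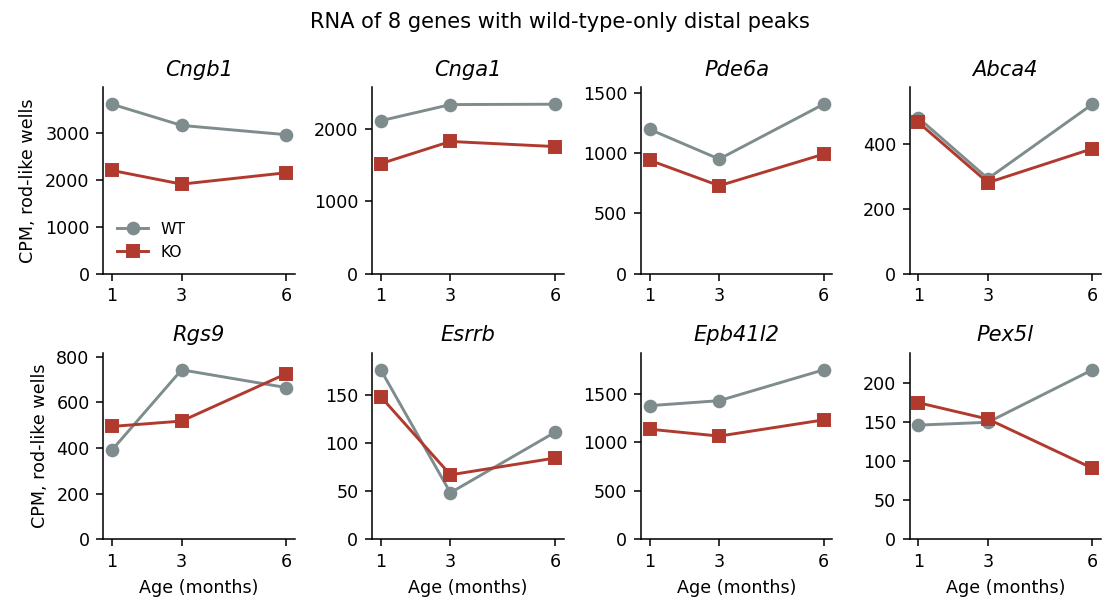
RNA level (CPM in rod-like wells, axis from 0) against age (months) for 8 genes with 8 or more members; grey circles are WT and red squares KO, 1 library each, joined by lines as a guide. KO lies below WT at each age for Cngb1, Cnga1, Pde6a, Abca4 and Epb41l2, by 0.04 (log2) at 1 month for Abca4, and the lines cross for Rgs9, Esrrb and Pex5l.

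Pex5l had 146, 150 and 217 CPM in WT and 175, 154 and 91.1 CPM in KO, lower at 6 months alone. Rpgrip1 had 942, 591 and 638 CPM in WT and 507, 368 and 495 CPM in KO, without overlap (log2 fold change -0.94, SE 0.28, adjusted p 0.480). Son, with 5 of 6 distal peaks WT-only, had 1062, 1512 and 1407 CPM in WT and 1354, 1361 and 1474 CPM in KO, inside the WT range. Dmd had 644, 573 and 1132 CPM in WT and 684, 649 and 799 CPM in KO.

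The genes with 3 or more members and the largest ratios of 1 sign over the ages follow. Ankrd44, an ankyrin repeat protein with 4 members among 11, had 7.41, 97.2 and 25.4 CPM in WT and 0.225, 1.86 and 3.86 CPM in KO, with no overlap (log2 fold change -4.74, SE 1.15, adjusted p 0.454); it passed in edgeR with no filter beyond 1 read and in DESeq2. Usp6nl, a GTPase-activating protein for Rab proteins with 7 of 28, had 61.2, 88.3 and 52.7 CPM in WT and 15.8, 17.3 and 28.0 CPM in KO (-2.04, SE 0.63, adjusted p 0.480). Peli2 and Prpsap2 were the next lowest by the rule, with log2 fold changes of -2.24 and -1.19. In the other direction, Dach1, a transcription factor with 3 of 14, had 4.55, 5.69 and 1.66 CPM in WT and 42.2, 35.9 and 24.6 CPM in KO (2.95, SE 1.11, adjusted p 0.513). Lrrtm2, Ksr1 and Klhl29 had log2 fold changes of 6.10, 4.01 and 3.10 from WT levels of at most 8.01 CPM. At Peli2, Lrrtm2, Ksr1, Dach1 and Klhl29 the KO list had more distal peaks than the WT list, so members there stood among a larger number of KO peaks.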

How the data were processed

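ATAC peak lists of 1 WT and 1 KO library and RNA read tables of 6 libraries were used. Peaks were made with Cell Ranger ATAC 1.1.0 on mm10, per the submitters' processing notes, which name CASAVA, TopHat2, HTSeq and Seurat for the RNA without versions. The deposited lists give position, gene, distance in bp and peak type, per the file headers, and hold no score per peak. The deposited RNA tables hold raw counts per gene ID and well, per the file headers and values; reads were not collapsed to molecules as far as the sources used here say. Starts were taken as 0-based and printed with 1 added. RefSeq tables (GRCm38.p6) gave gene bodies, symbols and promoter sequences. Of 2588 genes with members, 2246 matched a symbol with reads. The members and all lists were chosen with earlier results of these data known. No genome was used, so the sequences, GC content and motifs of the peaks as a set were not analysed here. Bases of members were read only where they lie in RefSeq promoter windows.

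A well was kept with 300 or more genes detected and no more than 30% mitochondrial reads (3746 of 3747). Wells were clustered with numpy, scikit-learn and igraph, and the clusters were named from marker lists. The clustering used 2000 variable genes, leaving out the gene lists under test and genes with 3 or more members. It used 30 components, 15 neighbours, Leiden resolution 1 and seed 1. No doublet caller was run. A cluster of 820 wells led by Edn2 was named Müller-like by that rule although its rod markers were high, and is counted with the rod-like wells as an alternative. Reads were summed per library over rod-like wells and tested with edgeR 4.0.16 (TMM, filterByExpr, age plus genotype, Benjamini-Hochberg adjustment, R 4.3.3); DESeq2 1.42.0 was an alternative, and the fit was tested on simulated data. Since the labels name no separate animals, p-values measure only the spread between these libraries. The SE of a fold change was calculated as the absolute log2 fold change divided by the square root of the quasi-likelihood F. CPM was scaled by the reads of the wells summed. Exact binomial intervals are at 95%. Named genes were the 15 with most members, the 8 with the largest share among those with at least 4 WT distal peaks, up to 15 with members from the photoreceptor lists, and 4 in each direction with the largest ratios of 1 sign over the ages. Python 3.11.15, pandas 2.3.3 and scipy 1.17.1 were used. Some genes that the rule for names selects are not reported here.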

Additional observations from a re-analysis of the deposited data

How the results depend on the processing

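The count of 3259 members kept within 1.5 times under each alternative overlap, type and chromosome setting except when only WT peaks of at least 500 bp were taken, which left 169. Genes with 3 or more members numbered 269, and 433 when a WT peak covered under 50% by KO peaks also counted, 160 when no KO peak lay within 1000 bp, 4 among peaks of at least 500 bp, 151 when every peak type value was distal and the distance was not 0, and 170 without members under 100 bp. The phototransduction share of 36.4% became 51.4%, 28.0%, 13.4% and 29.5% under the under-50% cover, 1000 bp, 500 bp length and 100 bp settings; over all WT distal peaks the shares were then 10.2%, 5.91%, 0.884% and 6.26%. edgeR called 0 genes with RLE size factors or with cluster 2 added, 87 with no filter beyond 1 read, 1 over all wells kept, and 735 with DESeq2; leaving out each age gave 0 to 98 genes. Only the ages share a number between genotypes, and they do not pair animals: without the age block, edgeR also called 0 genes. The median ratio of genes with 3 or more members at 1 month, 0.17, became 0.50 over all wells, -0.48 on TMM-scaled CPM, 1.03 in rod-like cluster 1 alone and -0.042 in cluster 3 alone. At 3 months, 0.02 became -0.21 on TMM-scaled CPM, 0.46 in cluster 1 and -0.61 in cluster 3, and at 6 months -0.11 became -1.71 in cluster 3, where KO 6 months had 8 wells. TMM scaling moved the median of all genes to -0.18, 0.16 and 0.04. Relative to all genes, the member genes stood at -0.28, -0.35 and -0.22, at -0.30, -0.37 and -0.22 with TMM, but at 0.29, -0.19 and -0.20 over all wells, at 0.11, 0.03 and -0.12 with no filter, and at 0.01 at 1 month in cluster 3. Phototransduction genes with members were below WT at the 3 ages in 9 to 13 of 15 in rod-like settings and in 1 over all wells. The causes were not tested. The edgeR log2 fold changes of Abca4, Cnga1, Cngb1, Epb41l2, Esrrb, Pde6a and Rgs9 were below 0 in every setting run; for Cngb1 they ranged from -1.13 to -0.55. Member counts of the 15 genes with most members fell by more than 1.5 times at each gene among peaks of at least 500 bp, to between 0 (Rgs9, Pex5l, Camta1 and Dmd) and 6 (Olfr1324). With no KO peak within 1000 bp they did so at AC114005.5 (17 to 11), Epb41 (9 to 4) and Cnga1 (8 to 5), and without members under 100 bp at Abca4 (22 to 13), AC114005.5 (to 11), Pde6a and Epb41l2 (12 to 7 each) and Epb41 (9 to 5). With every peak type value distal and distance not 0, AC114005.5 and Fgfr2 fell to 0, Camta1 to 5 and Dmd to 1. The settings on length below 100 bp, on the phototransduction share, on cluster 2 and on single clusters were chosen after seeing the data, as were, for the number of genes with 3 or more members, those on under-50% cover, on every peak type value, on 500 bp from a KO peak and on autosomes.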
